A study of Homo sapiens with 9 samples.

Results

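The cytosolic nucleic acid sensors and adaptors are 10 genes, taken by symbol from the table of normalised expression and matched to the same rows of the count table. All 10 were found, each in 1 row, among 63856 genes. Of these, 6 sense or act on double-stranded RNA (DDX58, IFIH1, DHX58, TLR3, EIF2AK2 and ADAR), MAVS is the adaptor of the RNA arm, and MB21D1, TMEM173 and ZBP1 are here called the DNA arm. The study used TCam-2 cells, a line from a human testicular seminoma, to ask how switching on the X-linked homeobox gene ESX1 changes the transcriptome. RNA was sequenced after ribosomal RNA removal in 9 samples, 3 biological replicates in each of 3 groups. WT cells carried no modification. NC cells received the px335_G2P vector with guide RNAs that match nothing specific in the human genome. ESX1 cells received guide RNAs for the ESX1 promoter together with the PB-TRE-dCas9-VPR vector, which carries a catalytically dead Cas9 fused to the VPR activator under a doxycycline-inducible promoter (CRISPR activation, CRISPRa). Transfected cells were selected with puromycin and doxycycline. The vectors were delivered by lipid and no cloning step is described, so a sample holds a population of cells. Whether the WT cells received the lipid, puromycin or doxycycline, and whether the NC cells received the dCas9-VPR vector, is not given in the sources used here. The NC against WT difference therefore joins transfection, vector and selection, which cannot be told apart. If the NC cells lacked the dCas9-VPR vector, the ESX1 against NC difference also joins that vector with ESX1 activation. The part of that vector in the ESX1 against NC values was not tested. The ESX1 against WT difference joins transfection, vectors, selection and ESX1 activation.

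Cells read foreign or misplaced nucleic acids in the cytosol through 2 routes. In the RNA route, RIG-I-like helicases bind double-stranded RNA and signal through MAVS on mitochondria to the kinase TBK1 and the factor IRF3, which switch on type I interferon. In the DNA route, cGAS makes a cyclic dinucleotide that activates STING on the endoplasmic reticulum, and STING uses the same kinase and factor. Interferon then raises many of the sensors themselves through a promoter element named ISRE, so sensor transcripts are also output genes of the pathway. The files use older symbols. DDX58 is RIG-I, IFIH1 is MDA5, DHX58 is LGP2, EIF2AK2 is the kinase PKR, MB21D1 is cGAS and TMEM173 is STING.

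The promoter letters of the members are shown first because several of the members moved together across the samples. RefSeq promoter windows (GRCh38.p14, 250 bases before and 50 after a transcription start) were at hand for 6 members with 8 start sites, and DHX58, MB21D1, TMEM173 and ZBP1 had no entry. The ISRE core was searched as GAAANNGAAA on both strands, and 3.57% of all 35116 promoter windows held it. It was found in 3 members. The windows are printed 5′ to 3′ on the strand of the gene, with the ISRE core in capitals. For DDX58, which had no ISRE core, the capitals mark a GAAA pair spaced by 1 base. That search, GAAANGAAA on both strands, was added after the DDX58 sequence had been read, and 3.12% of all windows held it.
IFIH1, chr2:162318656-162318883, minus strand: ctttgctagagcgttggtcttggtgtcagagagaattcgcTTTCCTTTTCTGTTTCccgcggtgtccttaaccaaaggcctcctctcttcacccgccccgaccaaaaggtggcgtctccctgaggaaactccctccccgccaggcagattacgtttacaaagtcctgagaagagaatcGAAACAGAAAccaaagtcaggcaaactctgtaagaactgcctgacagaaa
EIF2AK2, chr2:37156951-37157026, minus strand: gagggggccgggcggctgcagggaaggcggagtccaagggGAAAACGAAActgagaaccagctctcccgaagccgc
TLR3, chr4:186069112-186069185, plus strand: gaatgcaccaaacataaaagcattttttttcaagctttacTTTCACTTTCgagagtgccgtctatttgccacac
DDX58, chr9:32526167-32526446, minus strand: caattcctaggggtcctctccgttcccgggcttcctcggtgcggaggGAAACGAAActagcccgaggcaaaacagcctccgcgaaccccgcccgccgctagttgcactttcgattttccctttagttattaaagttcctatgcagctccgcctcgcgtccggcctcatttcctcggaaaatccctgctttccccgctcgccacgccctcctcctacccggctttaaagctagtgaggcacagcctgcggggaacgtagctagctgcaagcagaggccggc

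Counted from the transcription start, IFIH1 held 3 ISRE cores. An overlapping pair on the opposite strand spanned bases -159 to -150 and -153 to -144, and a core on the gene's own strand lay at -21 to -12. The single cores of EIF2AK2 (-6 to 4) and TLR3 (-4 to 6) lay across the start itself, on the gene's strand and on the opposite strand respectively. In DDX58 the GAAA pair spaced by 1 base lay at -203 to -195. None of the windows of ADAR (3 start sites), MAVS and DDX58 held the ISRE core. The GAS core, TTCNNNGAA on either strand, was held by 7.66% of all windows and among these members by TLR3 alone, at 2 places. A match describes letters in a window and does not show that a factor binds there.

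**Figure D1:**
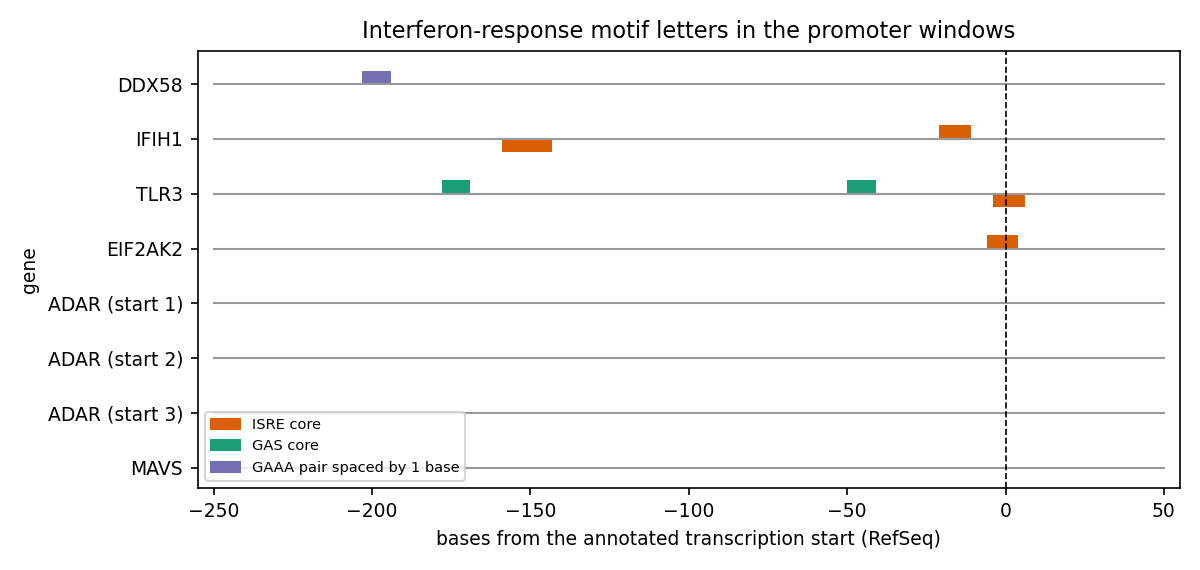
Position of motif letters in the 8 promoter windows of 6 members, in bases from the RefSeq transcription start (dashed line). Blocks above a line are on the gene's strand and blocks below it on the opposite strand. IFIH1 holds 3 ISRE cores, and EIF2AK2 and TLR3 hold 1 each at the start.

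The samples held between 5212804 (ESX1 replicate 3) and 10644408 (WT replicate 3) counted read pairs in genes, and 18452 genes had enough counts to be tested. Mitochondrially encoded genes took 17.0% to 18.3% of counts in WT, 14.5% to 15.3% in NC and 19.2% to 19.9% in ESX1, so this share differed between the groups without overlap. The targeted gene ESX1 had 33, 28 and 30 counts in WT, 35, 27 and 34 in NC, and 562, 554 and 170 in ESX1 replicates 1 to 3, so it followed the labels in all 9 samples. Seminoma markers matched the labelled cell line, since all 9 were detected, with a summed level of 3794 to 4659 normalised counts (CPM, scaled to library size) in WT, 2865 to 3073 in NC and 1608 to 1952 in ESX1. Leukocyte markers summed to 0.437 to 2.61 CPM in WT, 3.32 to 4.07 in NC and 2.92 to 6.79 in ESX1, with CD3E and LYZ at 0 counts in every sample and PTPRC at no more than 1. The sums came mostly from CSF1R, with 12, 1 and 9 counts in WT, 13, 21 and 28 in NC, and 55, 21 and 11 in ESX1 (ESX1 against WT 1.97 on the log2 scale, edgeR adjusted p = 0.0158), while CD14 reached 12 counts. The part of these shifts in the values of the members was not tested. One library stood apart for the sensors. ESX1 replicate 2 held DDX58, IFIH1, EIF2AK2 and ADAR at the NC level, while ESX1 replicates 1 and 3 lay near WT for DDX58 and ADAR, below WT for EIF2AK2 and between WT and NC for IFIH1. The tests of the members that use the ESX1 group are therefore given with and without that library. For other genes the value without it is given for some of those whose call or size it changed, not for all. The library was picked by the values of these same genes. Counts and p-values without it therefore describe the remaining samples and are not independent support. Its ESX1 transcript level was 55.7 normalised CPM, against 57.0 and 31.4 in the other ESX1 samples. In bulk RNA, fewer cells that express a gene and less of its RNA per cell cannot be told apart.

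Per kilobase of exon, ADAR was the most abundant member and the DNA arm was barely counted. In WT the mean levels in normalised CPM per kilobase (± SD, n = 3) were 56.2 ± 2.97 for ADAR, 23.7 ± 1.44 for EIF2AK2, 14.7 ± 1.55 for MAVS, 3.74 ± 0.244 for DDX58 and 0.122 ± 0.00676 for IFIH1. The WT ranges of these 5 genes did not overlap. DHX58, TLR3, MB21D1 and TMEM173 followed at mean levels of 0.0343 to 0.0812, where single counts set the order and neighbours did not differ beyond their spread. ZBP1 had 0 counts in every sample. In NC the order of the first 5 stayed, with 68.6 ± 1.94 for ADAR, 34.1 ± 2.69 for EIF2AK2, 16.8 ± 0.561 for MAVS, 10.03 ± 0.573 for DDX58 and 5.10 ± 0.327 for IFIH1. In ESX1 replicates 1 and 3 MAVS stayed above DDX58, at 18.4 and 17.5 against 2.98 and 3.86, and in ESX1 replicate 1 MAVS also exceeded EIF2AK2 (16.5). In ESX1 replicate 2 MAVS (13.2) and DDX58 (13.4) were at about the same level per kilobase.

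**Figure D2:**
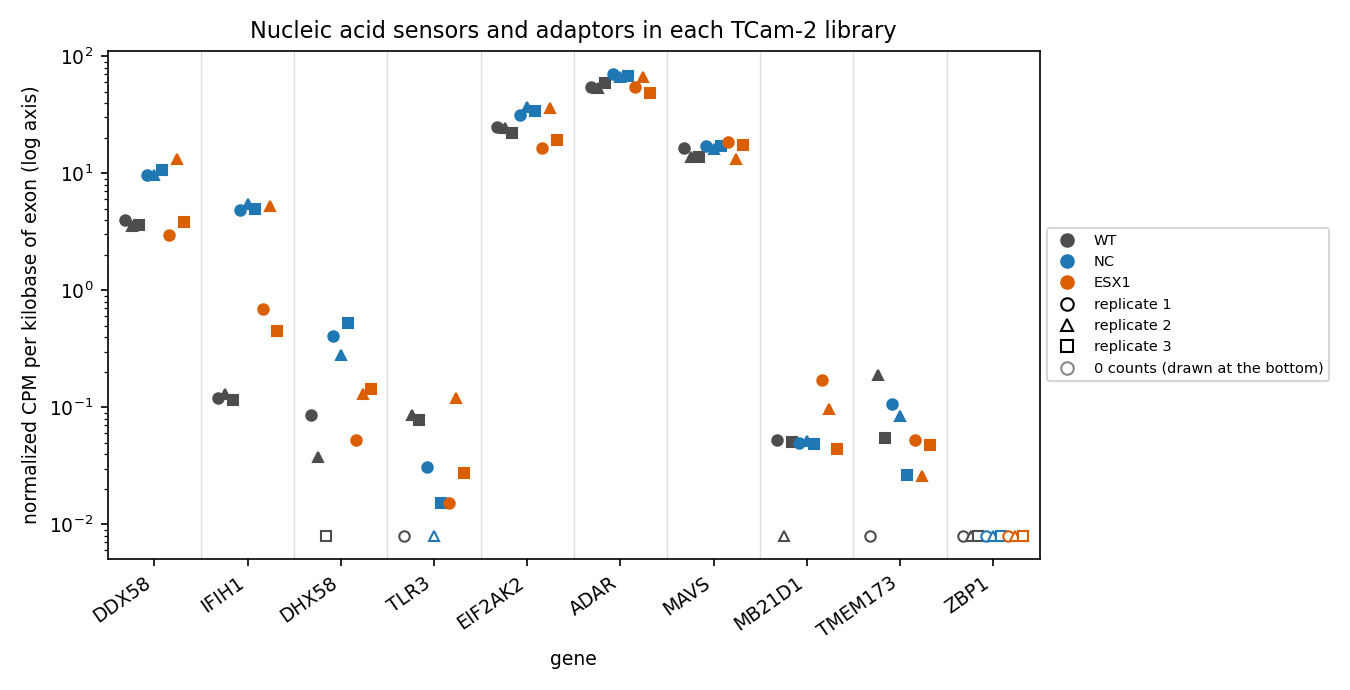
Normalised CPM per kilobase of exon (log axis) of the 10 members in each library. Colours stand for the groups and marker shapes for the replicates. Open markers at the bottom are libraries with 0 counts. The orange triangle of ESX1 replicate 2 sits with the blue NC points for DDX58, IFIH1, EIF2AK2 and ADAR, and ZBP1 is at 0 in all 9 libraries.

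The RIG-I-like helicases were the members that differed most between the groups. DDX58 (ENSG00000107201.9, chr9:32455705-32526324, minus strand, 18 merged exons) encodes the helicase that recognises RNA ends with a triphosphate. Its normalised CPM was 17.5, 15.5 and 15.9 in WT, 42.4, 42.0 and 46.5 in NC, and 13.0, 58.2 and 16.8 in ESX1. All NC samples lay above all WT samples, and the ESX1 group was split, with replicate 2 above every NC sample and replicates 1 and 3 in or below the WT range. NC exceeded WT by 1.42 on the log2 scale (SE 0.367, adjusted p = 0.0129, from the quasi-likelihood test of edgeR). The Benjamini-Hochberg procedure was applied across every tested gene. DESeq2 did not call this difference. ESX1 against WT gave 0.87 (SE 0.370, edgeR adjusted p = 0.0875) with all samples and -0.15 (SE 0.177, adjusted p = 0.575) without ESX1 replicate 2.

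IFIH1 (ENSG00000115267.5, chr2:162267079-162318703, minus strand, 16 merged exons) encodes the helicase that assembles on long double-stranded RNA. It had 5, 4 and 5 counts in WT, 212, 231 and 221 in NC, and 31, 237 and 11 in ESX1. As normalised CPM these were 0.546, 0.583 and 0.522 in WT, 22.0, 24.8 and 22.5 in NC, and 3.14, 23.8 and 2.03 in ESX1. The 3 groups of values did not overlap except that ESX1 replicate 2 lay within the NC range, and the remaining ESX1 samples stood at 5.71 and 3.69 times the WT mean against 39.9 to 45.0 times in NC. NC exceeded WT by 5.36 on the log2 scale (SE 0.749, edgeR adjusted p = 0.000158). ESX1 exceeded WT by 4.17 (SE 0.784, edgeR adjusted p = 0.000726), which fell to 2.27 (SE 0.381, adjusted p = 0.000345) without ESX1 replicate 2, so the call held without that library and its size was smaller.

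DHX58 (ENSG00000108771.12, chr17:42101404-42112733, minus strand, 14 merged exons) encodes a helicase of the same family without the signalling domains. It rested on few counts, 3, 1 and 0 in WT, 15, 10 and 20 in NC, and 2, 5 and 3 in ESX1. Every NC sample lay above every other sample, and WT and ESX1 overlapped. Over summed counts the NC to WT ratio was 9.997 (exact 95% interval of counting error only, 3.65 to 38.3), from 45 against 4 counts, and the edgeR adjusted p was 0.00960. With single samples removed, the fitted NC against WT change ran from 2.59 (without WT replicate 3) to 4.37 (without WT replicate 1) on the log2 scale, and it passed each time. The ESX1 to WT ratio was 2.54 (0.732 to 11.1), and the ESX1 to NC ratio was 0.254 (0.114 to 0.511) with an edgeR adjusted p of 0.143. Neither passed without ESX1 replicate 2 (edgeR adjusted p = 0.514 against WT and 0.203 against NC).

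The remaining RNA members are a kinase, an editing enzyme and an endosomal receptor. EIF2AK2 (ENSG00000055332.16, chr2:37099210-37157065, minus strand, 17 merged exons) shuts down translation by phosphorylating eIF2α when it binds double-stranded RNA. Its normalised CPM was 266, 260 and 237 in WT, 337, 395 and 369 in NC, and 177, 387 and 207 in ESX1. NC lay above WT in all samples, ESX1 replicates 1 and 3 lay below all WT samples, and ESX1 replicate 2 lay within NC. NC against WT gave 0.53 on the log2 scale (SE 0.200, edgeR adjusted p = 0.0782), and 0.53 (SE 0.107, adjusted p = 0.00257) in the fit without ESX1 replicate 2, where the residual spread was smaller. ESX1 against WT gave 0.02 (95% interval -0.41 to 0.44, edgeR adjusted p = 0.965) with all samples. Without ESX1 replicate 2, EIF2AK2 fell by 0.41 against WT (SE 0.121, edgeR adjusted p = 0.0183). Of its exon bases, 4.05% lie inside genes on the other strand, and the counting did not use strand. Read pairs that fall there are not assigned, so a small share of its reads may be missing from its count.

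ADAR (ENSG00000160710.15, chr1:154582062-154627999, minus strand, 16 merged exons) converts adenosine to inosine in double-stranded RNA, which keeps the cell's own RNA from being sensed. Its normalised CPM was 459, 452 and 498 in WT, 592, 561 and 569 in NC, and 456, 560 and 405 in ESX1. NC lay above WT without overlap, and ESX1 replicate 2 lay just under the lowest NC sample. NC against WT gave 0.29 on the log2 scale (SE 0.114, edgeR adjusted p = 0.0937), and 0.29 (SE 0.0937, adjusted p = 0.0419) without ESX1 replicate 2. The count is over the whole gene, so the interferon-inducible and the constitutive isoform of ADAR are not separated here.

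TLR3 (ENSG00000164342.12, chr4:186069152-186088069, plus strand), which senses double-stranded RNA inside endosomes, had 0, 4 and 5 counts in WT, 2, 0 and 1 in NC, and 1, 8 and 1 in ESX1. It was too low to be tested, and the groups overlapped. MAVS (ENSG00000088888.17, chr20:3846799-3876123, plus strand, 7 merged exons), the adaptor that DDX58 and IFIH1 share, had 194, 161 and 163 normalised CPM in WT, 203, 190 and 200 in NC, and 217, 155 and 206 in ESX1. ESX1 replicate 2 was here the lowest of all samples, and no comparison passed (NC against WT 0.20, 95% interval -0.07 to 0.47, edgeR adjusted p = 0.315). A difference in MAVS of more than 0.47 on the log2 scale in either direction lay outside the intervals of all 3 comparisons.

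Read across the members, NC against WT was the comparison in which most genes passed. Of the 10 members, 6 could be tested. DHX58 had at most 3 counts in any WT sample and 5 in any ESX1 sample. It passed the filter on low counts only through NC. IFIH1 had at most 5 counts in any WT sample and passed the filter through NC and ESX1. The counts of members that rose or fell, and the medians given below, therefore depend on that filter and are a description. In NC against WT 3 rose (IFIH1, DHX58 and DDX58), all by at least 2-fold, and none fell. Of all tested genes 17.1% passed, 6.82% as higher and 10.3% as lower, and 3.12% were higher by at least 2-fold. In ESX1 against WT 1 rose (IFIH1) and none fell, where 28.8% of all tested genes passed, 12.9% as higher and 15.8% as lower. In ESX1 against NC none of the 6 passed the edgeR test, where 4.25% of tested genes passed (1.88% higher, 2.37% lower), although 4 had an unadjusted p below 0.05. There DESeq2 called 0 members and gave IFIH1 no adjusted p, and limma on the authors' log2 values called 1. In NC against WT DESeq2 called DHX58 alone.

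Without ESX1 replicate 2 these counts became 5 of 6 higher in NC against WT (18.8% of tested genes passed, 7.59% as higher), with MAVS the exception. They became 1 higher and 1 lower in ESX1 against WT (29.3%, with 13.3% higher and 16.0% lower), and 4 lower in ESX1 against NC (4.95%, with 2.92% lower). In the last, IFIH1 fell by 3.09, DDX58 by 1.57, EIF2AK2 by 0.94 and ADAR by 0.41 on the log2 scale (edgeR adjusted p = 2.67e-06, 3.92e-05, 0.000203 and 0.0309). Because the library left out was chosen for its high values of these genes, these p-values depend on that choice. The median log2 change of the 6 tested members was 0.98 in NC against WT, 0.52 in ESX1 against WT and -0.53 in ESX1 against NC, beside 0.01, 0.01 and 0.00 over all tested genes. The 3 comparisons share their samples in pairs, so they are not separate evidence.

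**Figure D3:**
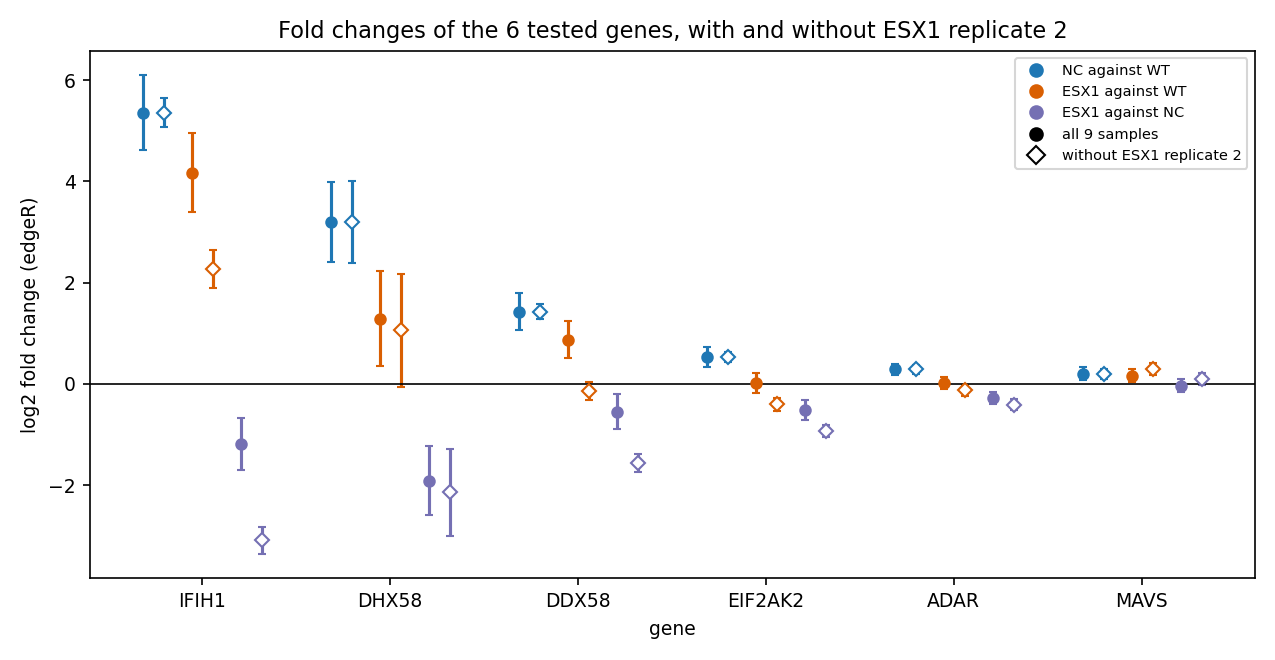
Log2 fold change (edgeR, bars ± 1 SE) of the 6 tested members in the 3 comparisons. Filled circles use all 9 samples and open diamonds leave out ESX1 replicate 2. Leaving it out moved the NC against WT values little and shortened their bars, while IFIH1 in ESX1 against NC went from -1.19 to -3.09.

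The DNA arm was near the detection limit in every sample, so no change in it could be seen. MB21D1 (ENSG00000164430.15, chr6:73413515-73452276, minus strand), the enzyme that senses cytosolic DNA, had 2, 0 and 2 counts in WT, 2, 2 and 2 in NC, and 7, 4 and 1 in ESX1. TMEM173 (ENSG00000184584.12, chr5:139475534-139482935, minus strand), its downstream adaptor, had 0, 5 and 2 counts in WT, 4, 3 and 1 in NC, and 2, 1 and 1 in ESX1. ZBP1 (ENSG00000124256.14, chr20:57603846-57620576, minus strand), which binds nucleic acids in the Z form and triggers necroptosis, had 0 counts in all 9 samples, which allows up to 0.302 to 0.554 CPM per library (3 counts). The groups overlapped for MB21D1 and TMEM173. Summed counts gave ESX1 to WT ratios of 3.05 for MB21D1 (exact 95% interval 0.923 to 12.9) and 0.580 for TMEM173 (0.125 to 2.28), both of which include 1. Of the exon bases of MB21D1, 4.33% lie inside DDX43 on the other strand.

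The RNA arm exceeded the DNA arm in each of the 9 samples. The 6 RNA members summed to 83.9, 82.2 and 85.5 normalised CPM per kilobase in WT, 117, 119 and 119 in NC, and 74.8, 122 and 72.2 in ESX1. The DNA arm summed to 0.0526, 0.189 and 0.105 in WT, 0.158, 0.135 and 0.0754 in NC, and 0.224, 0.123 and 0.0924 in ESX1. The RNA sum was thus higher in NC and in ESX1 replicate 2 than elsewhere, while the DNA sums of the groups overlapped.

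The resulting RNA to DNA ratios were 1597, 434 and 818 in WT, 744, 882 and 1572 in NC, and 335, 991 and 781 in ESX1. They overlapped between the groups and rest on 2 to 9 DNA-arm counts per library. The highest share of the DNA arm in counts was 9 of 6415 in ESX1 replicate 1, or 0.140% (exact 95% interval of counting error 0.0642 to 0.266%). ADAR and EIF2AK2 made up 84.5% to 95.5% of the RNA sum. The 3 RIG-I-like helicases alone summed to 3.72 to 4.22 in WT, 15.0 to 16.2 in NC, and 3.73, 18.8 and 4.46 in ESX1 replicates 1 to 3. Even this smaller sum was 16.7 to 215 times the DNA arm. The DNA arm as defined here leaves out IFI16, another DNA sensor, and DDX41 from the list of other sensors. In WT IFI16 (6.4, 6.9 and 7.7) and DDX41 (11.6 to 14.6) each exceeded the helicase sum. In NC both lay below it (11.5 to 13.3 and 13.6 to 14.9). In ESX1 IFI16 (3.5, 9.1 and 2.3) lay below it, and DDX41 (11.6, 11.7 and 12.2) exceeded it except in replicate 2.

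**Figure D4:**
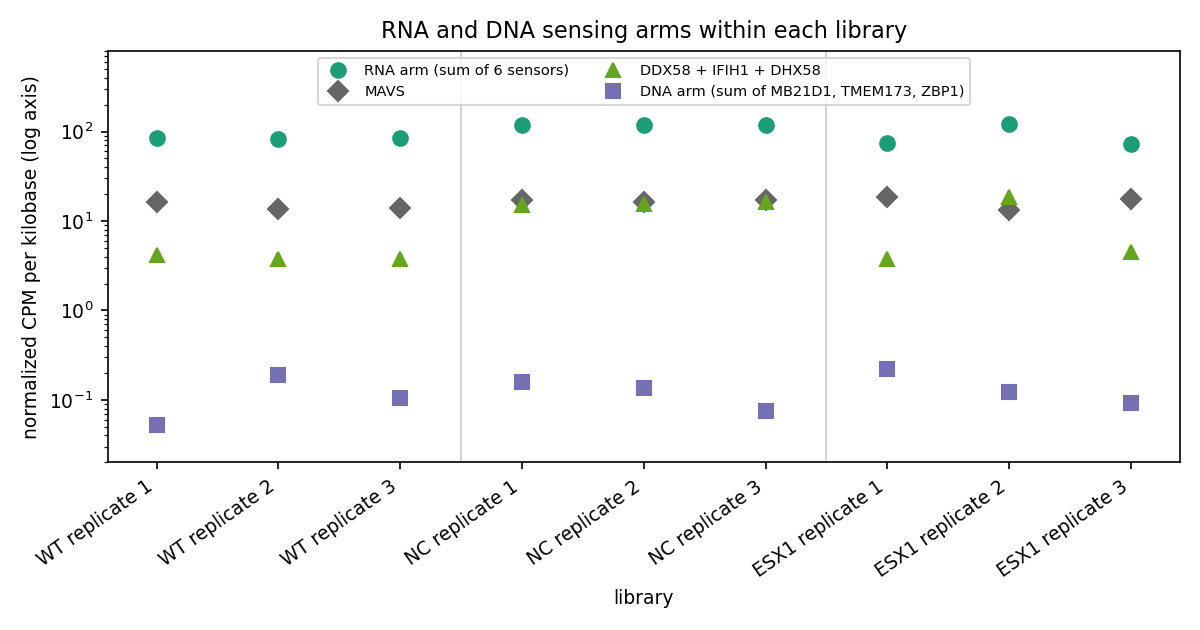
Summed normalised CPM per kilobase (log axis) of the RNA arm, of DDX58, IFIH1 and DHX58 alone, of MAVS and of the DNA arm in each of the 9 libraries. The DNA arm (squares) stays at or below 0.224 throughout. The helicase sum (triangles) lies just under MAVS in NC, above it in ESX1 replicate 2 and well under it elsewhere.

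Over the 9 samples Pearson's r of log2 CPM with DDX58 was 0.90 for IFIH1, 0.93 for EIF2AK2, 0.87 for ADAR, 0.77 for DHX58 and -0.13 for MAVS. ESX1 replicate 2 sat with or near NC for DDX58, IFIH1, EIF2AK2 and ADAR, but for DHX58 it stood at 3.19 times the WT mean, beside 3.51 times in ESX1 replicate 3 and 6.79 to 12.9 times in NC. These values describe 9 libraries in 3 groups and carry the group differences given above. Of all tested genes, those whose pattern was most like DDX58 included SMG1P5 (r = 0.98), DDX60 (0.97), XAF1 (0.96) and SAMD9 (0.96). SMG1P5 is a pseudogene with near-identical copies, so its counts are uncertain. No likeness is given for MB21D1, whose counts were too few.

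The other genes of the pathway were read from 2 lists, 44 genes that act with the sensors (37 tested) and 14 output genes (5 tested). Of the 37, 5 rose and 3 fell in NC against WT, 9 rose and 5 fell in ESX1 against WT, and 2 rose and 2 fell in ESX1 against NC. Their median log2 changes were 0.13, 0.18 and 0.03. These counts stand beside 17.1%, 28.8% and 4.25% of all tested genes that passed in the same comparisons.

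Some single pathway genes shared part of the helicase pattern, DDX60 most closely. DDX60, a helicase that aids RIG-I-like signalling, had 11.8, 7.87 and 7.31 normalised CPM in WT, 31.1, 41.7 and 41.7 in NC, and 4.77, 36.4 and 7.02 in ESX1. Its ESX1 replicate 2 lay in the NC range, and ESX1 replicates 1 and 3 lay under all WT samples. It rose by 2.08 on the log2 scale in NC against WT (SE 0.484, edgeR adjusted p = 0.00698). TRIM25, a ubiquitin ligase that activates RIG-I, had 26.6, 18.8 and 22.2 in WT, 85.0, 82.2 and 81.3 in NC, and 43.9, 76.2 and 34.4 in ESX1. For TRIM25 all ESX1 samples lay between WT and NC. It rose in NC against WT (1.87, SE 0.217, edgeR adjusted p = 3.14e-05) and in ESX1 against WT (1.20, SE 0.218, adjusted p = 0.000558), where it gave 0.80 without ESX1 replicate 2 (adjusted p = 0.00147). Without that library TRIM25 also fell in ESX1 against NC, by 1.07 (adjusted p = 0.000608).

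IRF7, the factor that amplifies interferon production, had 10.6, 11.1 and 9.61 normalised CPM in WT, 49.3, 39.3 and 44.0 in NC, and 17.6, 32.7 and 16.4 in ESX1. It passed in all 3 comparisons, with 2.09 in NC against WT, 1.11 in ESX1 against WT and -0.97 in ESX1 against NC (edgeR adjusted p = 1.75e-05, 0.00147 and 0.0119). The last 2 were 0.72 and -1.37 without ESX1 replicate 2, and both passed. IFI16, another DNA sensor, was well measured, with 34.1, 36.4 and 40.7 in WT, 61.1, 70.4 and 68.7 in NC, and 18.4, 48.4 and 12.2 in ESX1. ESX1 replicates 1 and 3 lay under all WT samples and replicate 2 between WT and NC. IFI16 fell by 1.31 in ESX1 against NC (SE 0.303, edgeR adjusted p = 0.0179), and by 2.10 without ESX1 replicate 2.

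Several other pathway genes passed. In both comparisons with WT, TRAF3 (0.62 in NC, 0.65 in ESX1) and the deubiquitinase CYLD (0.69 and 1.25) rose, while RNF125 (-0.70 and -1.06), a ligase that marks RIG-I for degradation, the NF-κB inhibitor NFKBIA (-0.46 and -0.43) and HMGB1 (-0.77 and -1.20) fell. In ESX1 against WT, TRAF6 (0.86), TNFAIP3 (1.37) and RELA (0.60) also passed as higher. TNFAIP3 rested on single libraries, since it no longer passed without ESX1 replicate 1 or 2 or without WT replicate 2 or 3, and its value ran from 0.97 (without WT replicate 3) to 2.17 (without WT replicate 1).

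The output genes moved as the helicases did, and the interferons themselves were barely counted. Of the 5 tested, 4 rose by edgeR in NC against WT (IFIT3 5.29, ISG15 5.26, IFIT1 5.18 and IFIT2 4.35 on the log2 scale) and the same 4 in ESX1 against WT (3.72, 4.79, 3.78 and 3.47), beside 6.82% and 12.9% of all tested genes that passed as higher. DESeq2 called 2 of the 5 in each of these comparisons and gave another 2 no adjusted p. In ESX1 against NC none passed the edgeR test and none DESeq2, while 2 passed limma on the authors' log2 values and 2 had an unadjusted p below 0.05 in edgeR. IFIT1, which binds RNA lacking a self-type cap, had 0.983, 1.31 and 1.46 normalised CPM in WT, 47.2, 45.8 and 44.2 in NC, and 2.74, 44.1 and 3.33 in ESX1. Without ESX1 replicate 2 only ISG15 and IFIT1 passed as higher in ESX1 against WT (2.20 and 1.24), and all 5 passed as lower in ESX1 against NC. IFIT2 and IFIT3 kept values of at least 1.58 and 1.95 in ESX1 against WT, whichever single sample was removed. The median of the 5 was 5.18 in NC against WT and 3.72 in ESX1 against WT. In WT, ISG15, IFIT2, IFIT3 and RSAD2 reached no more than 7, 5, 4 and 4 counts. These 4 passed the filter on low counts only through the groups where they were high. How many of the 5 rose, and their medians, therefore depend on that filter and are a description.

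IFNB1, the gene of interferon β, had 0 counts in all WT samples, 0, 2 and 3 in NC, and 0, 5 and 0 in ESX1. The samples with counts were NC replicates 2 and 3 and ESX1 replicate 2. IFNL1, IFNL2, IFNL3, CCL5, CXCL10, CXCL11, CXCL8, TREX1, TLR9 and RIPK3 had 3 counts or fewer in every sample. Most exon bases of TREX1 and TLR9 lie inside other genes, where read pairs are not assigned, so their counts say little.

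**Figure D5:**
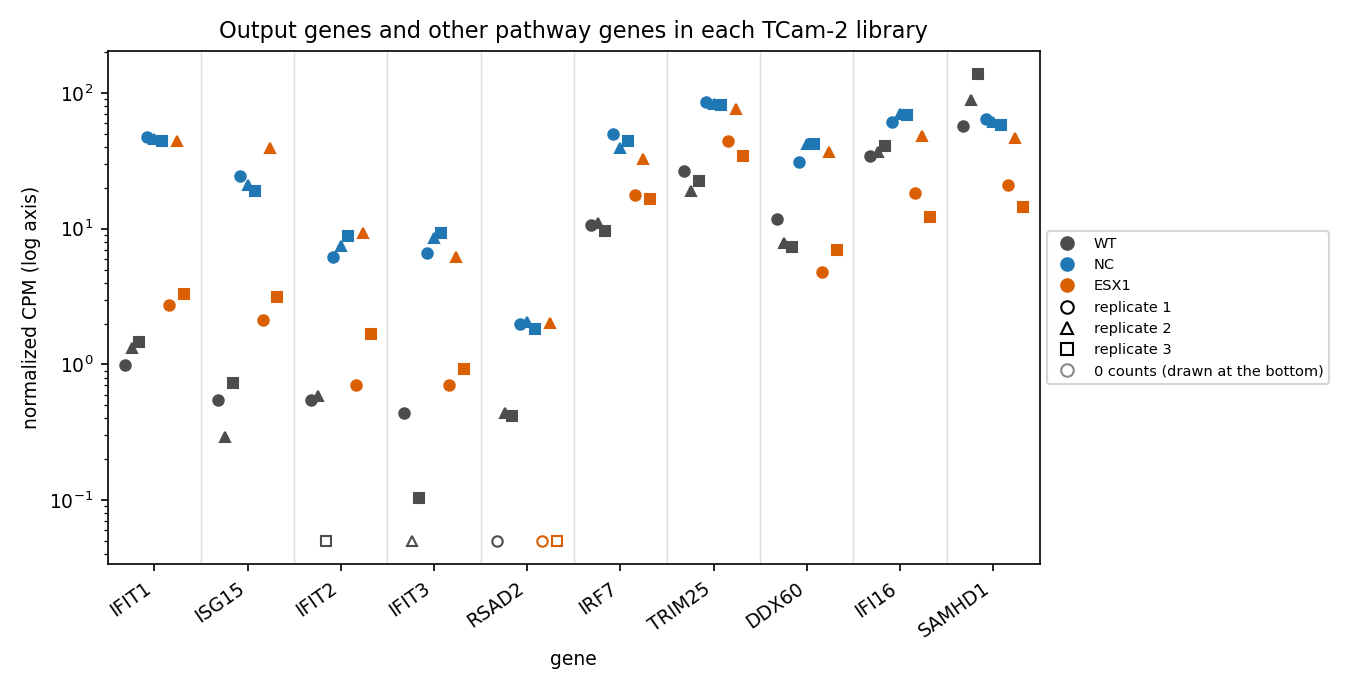
Normalised CPM (log axis) of 5 output genes and 5 other pathway genes in each library, with the colours and shapes of the plot of the members. ESX1 replicate 2 sits with or near NC for the IFIT genes, RSAD2 and DDX60, and above all NC samples for ISG15 (39.4 against 18.8 to 24.4). The other ESX1 samples sit near or below WT for DDX60 and IFI16 and above WT for TRIM25 and IRF7.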

How the data were processed

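The authors aligned paired reads of 150 bases from ribosome-depleted total RNA with HISAT2 2.0.5 to GRCh38 and assigned read pairs to genes using featureCounts. The deposited counts are raw whole numbers per gene. The annotation is GENCODE v26 per the file headers, counted without strand, although the library kit is stranded. The authors also deposited log2 values normalised with DESeq2, in which a count of 0 stands at 4.18, so low genes are compressed. They served here as an alternative only. The 10 members and the gene lists were chosen with earlier results of these data known.

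Counts of all genes passing edgeR's filter (18452) were fitted with edgeR 4.0.16 (R 4.3.3), TMM factors and a quasi-likelihood test over the 3 groups, with Benjamini-Hochberg adjustment over all tested genes and a threshold of 0.05. Intervals are 95% t intervals, and the SE is derived from the F statistic. Normalised CPM uses TMM-scaled library sizes, and CPM per kilobase divides by exon length. RNA and DNA arms were compared without a test. Ratios of few counts carry exact intervals that cover counting error only. Same-numbered samples did not deviate together (correlations -0.03 to 0.193), so replicates were not paired. p-values measure the spread between these samples, 3 a group. The steps were tested on simulated counts. limma 3.58.1 and DESeq2 1.42.0 were alternatives. Named genes were all members, ESX1, the passing genes of the lists (up to 4 per list and comparison), list genes with 3 counts or fewer everywhere, and the 5 genes most like DDX58, of which 1 is not reported here, nor is 1 leukocyte marker.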

Additional observations from a re-analysis of the deposited data

How the results depend on the processing

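Of 968 log2 changes recomputed under the alternatives, 879 kept their direction and their side of the threshold, 55 no longer passed, 24 newly passed and 10 changed sign. The number of members that passed moved with the library left out, the tool, the filter on low counts, the scaling and the samples in the fit. In ESX1 against WT it was 1, and became 0 with DESeq2 or with at least 10 counts required in every sample (IFIH1 is then not tested, and DESeq2 gives it no adjusted p), 2 without a filter on low counts, and 1 to 2 when single samples were removed. In ESX1 against NC it was 0, and became 3 without a filter, 1 with limma on the authors' log2 values, and 0 to 4 when single samples were removed, the 4 being without ESX1 replicate 2. In NC against WT it was 3, and became 5 with upper-quartile factors and 5 with only the 6 samples compared. With DESeq2 it was 1 (DHX58), where DDX58 missed the threshold and IFIH1 had no adjusted p. It was 2 to 5 when single samples were removed (DDX58 then missed the threshold without WT replicate 2, adjusted p = 0.054).

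With the replicate number as a block, members that passed numbered 1, 2 and 4 in ESX1 against WT, ESX1 against NC and NC against WT, and pathway and output genes 20, 10 and 15. Since the numbers do not pair the samples, these counts are a description. Pathway and output genes that passed in ESX1 against NC were 4, and became 9 without a filter, 9 with limma and 0 to 11 when single samples were removed. Without ESX1 replicate 2 they were 11, without NC replicate 3 they were 0, and without NC replicate 1, NC replicate 2, ESX1 replicate 1 or ESX1 replicate 3 they were 1. They ranged from 13 to 19 in ESX1 against WT and from 9 to 16 in NC against WT. Requiring a fold change of at least 2 left 11 of 18, 1 of 4 and 7 of 12. The highest DNA share of the summed level, 0.298%, became 3.88% from means of log2 levels, 1.09% without ADAR and 0.382% without EIF2AK2.

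Changes of sign were all small or rested on ESX1 replicate 2. In ESX1 against WT, EIF2AK2 was -0.053 with limma and -0.053 with the block. With single samples removed, values in ESX1 against WT ranged from -0.15 (without ESX1 replicate 2) to 1.24 for DDX58, from -0.41 (without ESX1 replicate 2, and also below 0 without WT replicate 3) to 0.23 for EIF2AK2, and from -0.13 (without ESX1 replicate 2, and also below 0 without WT replicate 1 or 2) to 0.14 for ADAR. MAVS in ESX1 against NC ranged from -0.13 to 0.098, the latter without ESX1 replicate 2, and ESX1 itself in NC against WT from -0.20 to 0.0060, the latter without NC replicate 2. The cause of these shifts was not tested. With 3 samples a group and 2 to 9 counts in the DNA arm per library, changes of MB21D1, TMEM173 and TLR3 were not detectable at this depth.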

Other observations

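Of the 7 tested genes listed under control of the sensors' ligands, 1 rose and 2 fell in ESX1 against WT, where 28.8% of all tested genes passed. SAMHD1, which hydrolyses deoxynucleotides and restrains nucleic acid sensing, had 57.1, 88.6 and 137 normalised CPM in WT, 63.6, 61.3 and 58.2 in NC, and 20.8, 46.5 and 14.4 in ESX1. All ESX1 samples lay below all samples of both other groups, and relative to WT SAMHD1 fell by 1.76 on the log2 scale (SE 0.318, edgeR adjusted p = 0.000523), with -1.13 against NC (adjusted p = 0.0522, short of the threshold). With ESX1 replicate 2 removed, the highest of the 3 ESX1 samples, the SAMHD1 change was -2.40 relative to WT and -1.77 relative to NC (adjusted p = 0.00115), and the latter also passed with only the 6 samples compared (adjusted p = 0.0244). RNASEH2A, a subunit of the enzyme that removes RNA from DNA hybrids, fell by 0.69 in ESX1 against WT (adjusted p = 0.00272), and ADARB1, a second RNA editing enzyme, rose by 0.51 (adjusted p = 0.0386).

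Of the other eIF2α kinases, EIF2AK4, which senses amino acid shortage, rose in ESX1 against WT by 0.42 (SE 0.127, edgeR adjusted p = 0.0190) and against NC by 0.54 (SE 0.127, adjusted p = 0.0204). EIF2AK3, which senses stress of the endoplasmic reticulum, rose against NC by 0.43 (SE 0.117, adjusted p = 0.0460), a call that was lost without ESX1 replicate 2 (0.46, adjusted p = 0.0502) and with only the 6 samples compared (adjusted p = 0.0616). EIF2AK2 itself gave -0.51 against NC (adjusted p = 0.191). Somatic testis markers summed to 10.8 to 20.3 normalised CPM in WT, 26.7 to 37.5 in NC and 18.1 to 49.5 in ESX1. COL1A1 rose most, with means of 3.64 in WT, 17.0 in NC and 17.7 in ESX1. It alone of these markers passed, as higher in NC against WT (2.19, edgeR adjusted p = 0.000708) and in ESX1 against WT (2.27, adjusted p = 0.000236). INHA was lower, with means of 1.74 in WT, 1.25 in NC and 0.806 in ESX1. Embryonal carcinoma markers summed to 72.4 to 82.7, 63.1 to 72.3 and 54.9 to 66.3, with ZFP42 at no more than 3 counts. DNMT3B made up most of that sum, with mean levels of 74.8 in WT, 59.1 in NC and 52.9 in ESX1. SOX2 went the other way, with means of 4.24, 9.84 and 7.86. It rose by 1.23 on the log2 scale in NC against WT (edgeR adjusted p = 0.0222). Whether these shifts have a part in the sensor values was not tested.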
